A study of Mus musculus with 6 samples.

Results

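The genes described here are 9 that set the shape and the removal of mitochondria: *Mfn1*, *Mfn2* and *Opa1* for fusion, *Dnm1l*, *Fis1* and *Mff* for fission, and *Pink1*, *Bnip3* and *Bnip3l* for mitophagy. They were picked by gene name, and each of the 9 names stood once among the 22027 genes of the expression table. All 9 were among the 12322 genes that passed the filter on low counts, with 958 to 59553 reads per gene and library. RNA-seq was done on gastrocnemius (GAS) muscle of 3 WT and 3 mKD female mice fed regular chow (RC), at the age of 14 weeks, with 1 library per mouse. Both genotypes carried loxP-flanked *Tet3* alleles (Tet3 fl/fl), and only the mKD mice also carried HSA-Cre79, a Cre transgene under the human skeletal actin promoter. The Cre acts in skeletal muscle fibres, so the other cells of the muscle keep *Tet3*. The labels give all 6 samples a time of 48 h and name WT mice as littermates. The question for these genes is whether their mRNA differs between WT muscle and muscle whose fibres carry the *Tet3* knockout, *Tet3* encoding an enzyme that oxidises methylated cytosine in DNA.

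Mitochondria in muscle fibres fuse and divide all the time. Fusion joins first the outer and then the inner membranes of neighbouring organelles and lets them share their contents, while fission splits off pieces that can be moved or discarded. Mitophagy is the part of autophagy that takes up damaged or surplus mitochondria, either after the kinase PINK1 and the ubiquitin ligase Parkin have tagged them or through receptors such as BNIP3 and BNIP3L (also called NIX) that sit in the outer membrane. Much of this machinery is controlled on the protein, by cleavage, phosphorylation and recruitment, which mRNA counts do not measure.

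The 4 promoter windows shown are those of the 3 genes that passed the cut-off used below (*Opa1*, *Dnm1l* and *Pink1*) and of *Bnip3*, the hypoxia-responsive mitophagy receptor. Each runs from 250 bases before to 50 bases after a transcription start annotated by RefSeq on GRCm38.p6 and is written 5′ to 3′ on the strand of the gene. *Opa1* is at chr16:29579084-29579383 (plus strand), *Dnm1l* at chr16:16358982-16359281 (minus strand, the more upstream of its annotated starts), *Pink1* at chr4:138326247-138326546 (minus strand) and *Bnip3* at chr7:138909457-138909756 (minus strand). Capitals mark letters that match 1 of the 6 motifs searched, and lower case marks all other bases.
Opa1: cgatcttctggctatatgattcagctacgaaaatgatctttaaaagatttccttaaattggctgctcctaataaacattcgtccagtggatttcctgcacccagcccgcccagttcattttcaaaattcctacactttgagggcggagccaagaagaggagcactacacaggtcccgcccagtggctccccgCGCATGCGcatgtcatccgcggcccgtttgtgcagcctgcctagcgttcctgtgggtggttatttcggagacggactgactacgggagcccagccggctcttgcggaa
Dnm1l: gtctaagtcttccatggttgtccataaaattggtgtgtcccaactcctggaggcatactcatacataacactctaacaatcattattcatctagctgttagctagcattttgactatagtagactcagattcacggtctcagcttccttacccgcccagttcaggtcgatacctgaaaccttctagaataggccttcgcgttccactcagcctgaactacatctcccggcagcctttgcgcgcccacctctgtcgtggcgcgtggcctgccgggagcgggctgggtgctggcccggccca
Pink1: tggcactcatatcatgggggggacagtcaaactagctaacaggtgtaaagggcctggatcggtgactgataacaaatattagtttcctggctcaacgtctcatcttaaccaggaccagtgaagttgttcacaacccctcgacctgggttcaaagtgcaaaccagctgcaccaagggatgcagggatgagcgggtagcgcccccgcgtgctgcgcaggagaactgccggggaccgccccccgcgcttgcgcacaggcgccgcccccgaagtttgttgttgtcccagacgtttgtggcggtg
Bnip3: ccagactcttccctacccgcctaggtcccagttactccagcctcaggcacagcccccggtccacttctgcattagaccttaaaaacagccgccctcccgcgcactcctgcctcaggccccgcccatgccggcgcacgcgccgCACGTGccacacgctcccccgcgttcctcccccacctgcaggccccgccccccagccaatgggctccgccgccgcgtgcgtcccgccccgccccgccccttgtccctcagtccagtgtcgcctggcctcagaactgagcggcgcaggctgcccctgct

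Of the 9 genes, 8 had at least 1 RefSeq window (13 windows in all), and *Bnip3l* had none. On both strands, 6 short motifs were searched: GCATGCG (the core of the site of NRF1, a regulator of nuclear genes for mitochondria), AAGGTCA (an ERR binding motif), TGTTTAC (a FOXO site), ACGTG (the core of the hypoxia response element), CACGTG (an E-box, which contains the hypoxia core) and TGACG (a CRE core motif). The *Opa1* window held the NRF1 core on both strands in overlapping positions, 58 and 57 bases before the start. That motif occurred in 3.58% of 32851 mouse windows and in none of the other windows of these genes. The *Bnip3* window held the E-box, found in 7.15% of all windows, 108 bases before the start, and with it the hypoxia core. The hypoxia core occurred in 19.62% of all windows and also in 2 of the 3 *Mfn2* windows. The CRE core motif, in 20.81% of all windows, lay in windows of *Mfn1*, *Mfn2* and *Mff*. None of the windows of *Pink1*, *Dnm1l* or *Fis1* held any of the 6 motifs. The ERR motif (4.72% of all windows) and the FOXO site (3.65%) were in none of the 13 windows. These matches describe letters only, and no binding or methylation was measured in these libraries.

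Of the libraries, WT 1 was the shallowest with 16219227 reads, and the others held 26296469 to 32148270. *Tet3* itself had 594, 536 and 708 normalised counts in WT against 425, 318 and 472 in mKD, so the genotypes did not overlap (log2 fold change -0.60, SE 0.18, adjusted p = 0.18 from limma). Its longest transcript has 10904 nucleotides, and with the trend of each library over the longest transcript removed its log2 fold change was -0.22 (95% interval -0.64 to 0.19, limma adjusted p = 0.66) and with that over the median transcript removed -0.35 (limma adjusted p = 0.38), neither past the cut-off of 1.2-fold with an unadjusted p under 0.05. All 10 markers of muscle fibres were detected in every library, with summed normalised counts of 4205330 to 4935670 in WT and 3965850 to 4707880 in mKD. Of these 10, 1 was higher and 1 lower past the cut-off. Their mean log2 deviation from the WT mean was 0.23, -0.45 and 0.22 in WT 1, WT 2 and WT 3. In mKD 1, mKD 2 and mKD 3 it was -0.06, -0.04 and -0.01. The mKD libraries stood apart in other cell types. The 8 Schwann cell and nerve markers summed to 38029 in mKD 1 and 11634 in mKD 3, against 1797 in mKD 2 and 2353 to 2436 in WT, and none of them was at 0 in any library. The 7 endothelial markers summed to 6007 to 7800 in mKD and 10261 to 11529 in WT, with 5 of the 7 lower past the cut-off, and the 5 smooth muscle and pericyte markers to 8462 to 10501 and 14826 to 14983, with 3 of the 5 lower. None of the endothelial or smooth muscle markers was at 0. The 6 adipocyte markers summed to 5897 to 9440 in mKD and 4258 to 4756 in WT, with 1 of the 6 higher and 4 of the 6 at 0 in some library. Summed markers of macrophages, fibroblasts and red blood cells overlapped between the genotypes. By gene, 0 of the 6 macrophage and 0 of the 5 fibroblast markers had a positive log2 fold change, with medians of -0.47 and -0.46. Past the cut-off, 0 of these macrophage markers and 1 of these fibroblast markers were lower. The 4 red blood cell markers had a median of 0.06. They summed to 10387 in mKD 2, against 2529 in mKD 1, 3438 in mKD 3 and 3333 to 5966 in WT. In bulk tissue, fewer cells of a type and less RNA per cell cannot be told apart. Transcript length also moved with genotype: the median log2 fold change, mKD minus WT, was 0.31 over the 1304 genes whose longest transcript has up to 1500 nucleotides and -0.23 over the 2965 genes above 5000 nucleotides.

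Past the cut-off of 1.2-fold with an unadjusted p under 0.05, *Pink1* was higher in mKD mice and *Opa1* and *Dnm1l* were lower. The other 6 genes did not pass it. The 1 of 9 that rose (11.1%) stands beside 8.31% of all genes tested, and the 2 of 9 that fell (22.2%) beside 9.51%, where 1 gene is worth 11.1% of the 9. The genotypes did not overlap in 4 genes, 1 with mKD higher and 3 with mKD lower, beside 12.1% and 12.7% of all genes. After Benjamini-Hochberg adjustment over all genes, 0 of the 9 were under 0.05 in limma, beside 0.0162% of all genes, and 3 had an unadjusted p under 0.05, beside 18.1% of all genes. The same count was 0 in edgeR, which called 2 of all genes (0.0162%), and 0 in DESeq2, which called 535 (4.34%). Both tools put 1 of the 9 genes higher and 2 lower past the cut-off, beside 8.93% and 9.11% of all genes in edgeR and 8.34% and 9.37% in DESeq2. The lowest adjusted p of any of the 9 genes was 0.053, for *Pink1* in DESeq2. The median log2 fold change was 0.11 over the 9 genes and 0.01 over all genes. The plot of counts by mouse shows where the mice of the genotypes overlap.

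**Figure D1:**
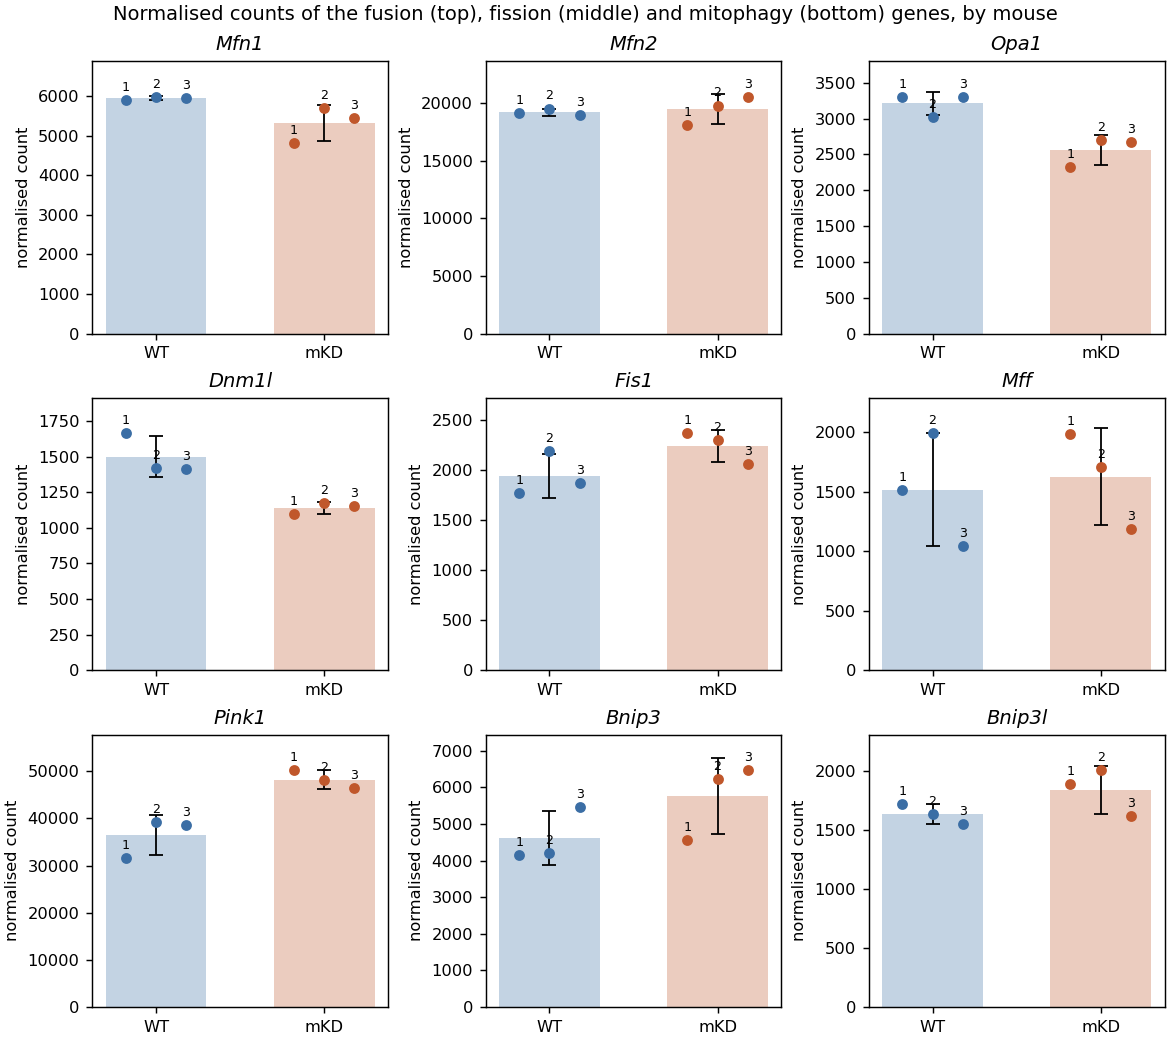
Normalised count (vertical axis, from 0) of the 9 genes in WT and mKD muscle; points are single mice with their replicate number, bars the mean and error bars the SD (n = 3). Points of the 2 genotypes do not overlap for Mfn1, Opa1, Dnm1l and Pink1, and they overlap for the other 5 genes.

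Among the fusion genes, *Opa1* was lower in mKD, while *Mfn1* and *Mfn2* did not pass the cut-off. *Opa1* (chr16:29579334-29654884, plus strand) encodes the dynamin-like GTPase that fuses inner membranes and keeps cristae closed. The WT mice had normalised counts of 3301, 3029 and 3308 and the mKD mice of 2322, 2698 and 2674. Each mKD mouse lay below each WT mouse, and mKD 1, the library with the most nerve transcripts, was the lowest. The mean was 3212 ± 159 (SD, n = 3) in WT and 2565 ± 211 (SD, n = 3) in mKD, so it fell by 20.2%. The log2 fold change was -0.33 (SE 0.11, 95% interval -0.57 to -0.08; limma p = 0.016, adjusted p = 0.20), and the exact permutation test gave p = 0.10, the smallest that 3 mice against 3 allow. *Opa1* has the longest transcript of the 9 genes, 6230 nucleotides. With the trend of each library over transcript length removed, its log2 fold change was -0.11 (95% interval -0.35 to 0.12, limma adjusted p = 0.70), and with that over the median transcript removed it was -0.18 (limma adjusted p = 0.44). Without mKD 1 it was -0.26 (limma adjusted p = 0.44). In none of these 3 fits did *Opa1* pass the cut-off.

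The mitofusins are outer-membrane GTPases that tether mitochondria to each other, and *Mfn2* also takes part in contacts with the endoplasmic reticulum. *Mfn1* (chr3:32529465-32579239) had normalised counts of 5894, 5991 and 5954 in WT and 4816, 5709 and 5444 in mKD. The mKD mice were all below the WT mice, which varied little among themselves (coefficient of variation 0.824%, against 8.61% in mKD). The log2 fold change of -0.16 did not pass the cut-off (SE 0.10, 95% interval -0.40 to 0.08; limma p = 0.15, adjusted p = 0.43; exact permutation p = 0.10). *Mfn2* (chr4:147873599-147904704) had 19142, 19564 and 18967 in WT and 18116, 19825 and 20598 in mKD. Here the mKD mice lay on both sides of the WT mice, and the log2 fold change was 0.02 with a 95% interval of -0.22 to 0.26 (limma adjusted p = 0.94). That interval lies within 1.2-fold on either side, the log2 of which is 0.26.

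Among the fission genes, *Dnm1l* was lower in mKD, and its adaptors *Fis1* and *Mff* did not pass the cut-off. *Dnm1l* (chr16:16312230-16358959, minus strand) encodes DRP1, the GTPase that assembles around mitochondria and constricts them. WT mice had normalised counts of 1665, 1418 and 1414, against 1094, 1177 and 1152 in mKD mice. The 3 mKD mice lay close together and below all WT mice, and WT 1, the shallowest library, was the highest. The mean was 1499 ± 143 (SD, n = 3) in WT and 1141 ± 42.2 (SD, n = 3) in mKD, so it fell by 23.9%. The log2 fold change was -0.39 (SE 0.11, 95% interval -0.65 to -0.13; limma p = 0.0084, adjusted p = 0.17; exact permutation p = 0.10). It kept its place past the cut-off with each library left out in turn, with log2 fold changes of -0.43 to -0.31, and with the trend over the longest transcript removed, at -0.35 (limma adjusted p = 0.36). With the trend over the median transcript of each gene removed it was -0.26 (limma adjusted p = 0.31), just short of 1.2-fold. An antisense gene, Gm49521, overlaps *Dnm1l*, and the pseudogene Gm13719 is 91.2% identical to it over 1347 nucleotides. Neither whether the counting used strand nor how reads with several places were treated is given in the sources used here.

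*Fis1* (chr5:136953275-136966234) encodes a small outer-membrane adaptor that is needed for fission in yeast and has a more limited part in mammals. WT mice had normalised counts of 1774, 2194 and 1872, against 2371, 2304 and 2067 in mKD mice. WT 2 lay above mKD 3, so the genotypes overlapped, and the log2 fold change of 0.21 did not pass the cut-off (95% interval -0.07 to 0.49, limma adjusted p = 0.38; exact permutation p = 0.20). *Fis1* has the shortest transcript of the 9 genes, 948 nucleotides, and its sign turned to -0.10 with the trend over the longest transcript removed (95% interval -0.35 to 0.15). Without WT 2 the log2 fold change was 0.30, past the cut-off (limma adjusted p = 0.32). *Mff* (chr1:82724890-82752394) encodes the main outer-membrane receptor of DRP1. It had 1517, 1992 and 1049 in WT and 1985, 1710 and 1184 in mKD, the widest spread of the 9 genes. Its coefficient of variation was 31.0% in WT and 25.0% in mKD, and its interval, from -0.50 to 0.73 around a log2 fold change of 0.11, leaves differences of more than 1.2-fold in either direction within it (limma adjusted p = 0.85).

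Among the mitophagy genes, *Pink1* was higher in mKD, and *Bnip3* and *Bnip3l* did not pass the cut-off. *Pink1* (chr4:138313409-138326307, minus strand) encodes the kinase that builds up on damaged mitochondria and phosphorylates ubiquitin and Parkin. WT mice had normalised counts of 31631, 39256 and 38517, against 50256, 48065 and 46382 in mKD mice. Each mKD mouse lay above each WT mouse, and WT 1, the shallowest library, was the lowest. The mean was 36468 ± 4205 (SD, n = 3) in WT and 48234 ± 1943 (SD, n = 3) in mKD, a rise of 32.3%. The log2 fold change was 0.41 (SE 0.13, 95% interval 0.11 to 0.71; limma p = 0.014, adjusted p = 0.19; exact permutation p = 0.10). With the trend over the longest transcript removed it was 0.30 and still past the cut-off (limma adjusted p = 0.44), and with that over the median transcript removed it was 0.42 (limma adjusted p = 0.23). Without WT 1 it was 0.31 and not past the cut-off (limma adjusted p = 0.40), and with the replicate number of the labels as a block it was again 0.41, with a wider 95% interval (-0.00 to 0.82), and did not pass (limma adjusted p = 0.36).

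*Bnip3* and *Bnip3l* encode related outer-membrane receptors that bind the LC3 proteins of the autophagosome, and *Bnip3* is induced by hypoxia and by FOXO3 in muscle. *Bnip3* (chr7:138890836-138909519) had normalised counts of 4151, 4218 and 5471 in WT and 4564, 6221 and 6473 in mKD. WT 3 lay above mKD 1, so the genotypes overlapped, and the log2 fold change of 0.31 did not pass the cut-off (SE 0.17, 95% interval -0.08 to 0.71; limma adjusted p = 0.37; exact permutation p = 0.20). It did pass in the fit without WT 3, at 0.44, and without mKD 1, at 0.47 (limma adjusted p = 0.24 and 0.37), and it was 0.13 with the trend over the longest transcript removed. *Bnip3l* (chr14:66985239-67008877) had 1719, 1628 and 1546 in WT and 1887, 2004 and 1616 in mKD. The genotypes overlapped by mKD 3 alone, and the log2 fold change was 0.17 (95% interval -0.11 to 0.44, limma adjusted p = 0.48; exact permutation p = 0.30). Counts of both genes are uncertain by what reads of near copies could add: pseudogenes such as Gm16439 are 98.9% identical to *Bnip3* over 564 nucleotides, and Bnip3l-ps is 99.2% identical to *Bnip3l* over 663. These copies were not analysed here.

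**Figure D2:**
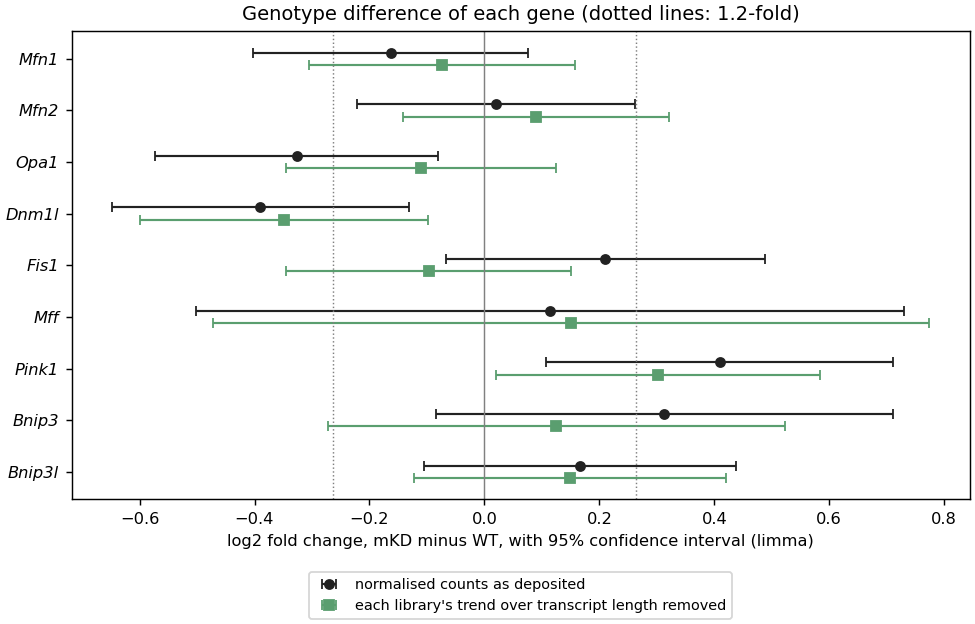
Log2 fold change, mKD minus WT, of each gene (horizontal axis) with its 95% confidence interval from limma on 3 mice per genotype; circles use the normalised counts as deposited and squares the counts after removal of the trend that each library showed over transcript length, and dotted lines mark 1.2-fold. Dnm1l (-0.39 and -0.35) and Pink1 (0.41 and 0.30) stay on their side of 0 with both intervals, Opa1 moves from -0.33 to -0.11, and Fis1 from 0.21 to -0.10.

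The 9 genes followed the order of transcript length in part. The mitophagy genes and *Fis1*, whose longest transcripts have 948 to 3259 nucleotides, had positive values, and *Mfn1* (4562 nucleotides) and *Opa1* (6230) had negative ones, while *Mfn2* (4341) was at 0.02. *Dnm1l* (3966) and *Mff* (3918) are of nearly the same length by longest transcript, and their log2 fold changes were -0.39 and 0.11. The limma interval of *Mff* (-0.50 to 0.73) contains the value of *Dnm1l*, so these values are not shown to differ. By median transcript the lengths of *Dnm1l* and *Mff* are 2913 and 1501.5 nucleotides. With the trend over the longest transcript removed, 1 of the 9 was higher and 1 lower past the cut-off, beside 5.04% and 5.46% of all genes. With the trend over the median transcript removed, 1 was higher and 0 lower, beside 6.67% and 8.06%, and with the replicate block 0 were higher and 2 lower, beside 6.31% and 7.82%.

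**Figure D3:**
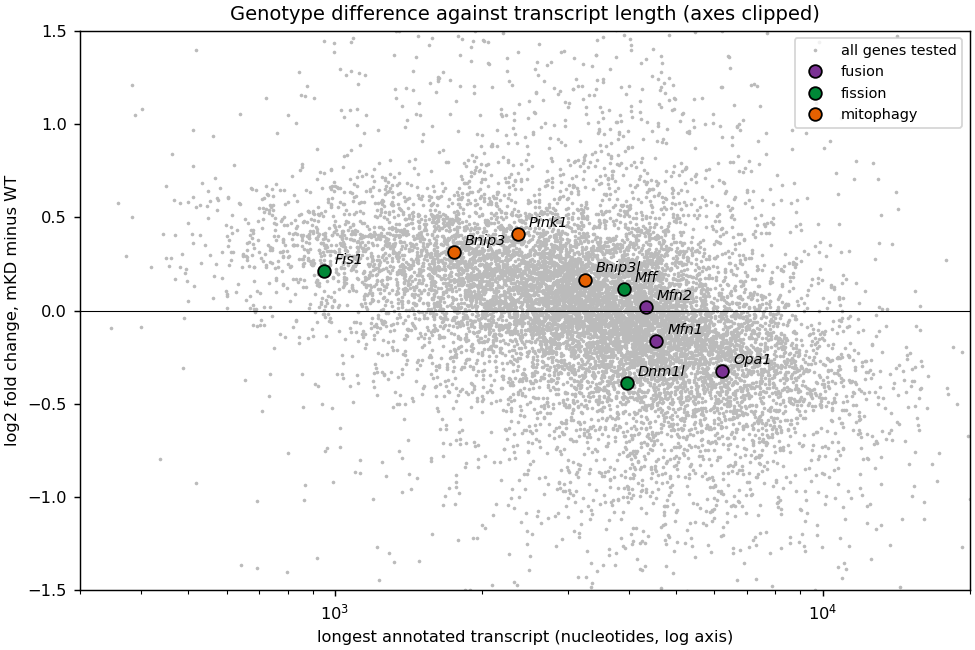
Log2 fold change, mKD minus WT (vertical axis), against the longest annotated transcript in nucleotides (horizontal log axis) for all genes tested (grey) and the 9 genes by role (coloured); the axes are clipped. Grey points slope from positive values for short transcripts to negative ones for long transcripts, with Dnm1l (-0.39) below and Pink1 (0.41) above the middle of the grey points at their length.

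The samples with the most nerve transcripts, mKD 1 and mKD 3, were also left out together, which leaves 1 mKD mouse, assumed to vary like the WT mice. In that fit 0 of the 9 genes passed the cut-off, beside 3.73% of all genes higher and 5.96% lower. The log2 fold changes were -0.25 for *Opa1*, -0.34 for *Dnm1l* and 0.41 for *Pink1*. For *Dnm1l* and *Pink1* these sizes are close to those with all mice, and the intervals were wider (-0.80 to 0.11 and -0.13 to 0.94). Relative to the WT mean, mKD 1 deviated the most of the mKD mice for *Mfn1*, *Opa1*, *Dnm1l*, *Fis1*, *Mff* and *Pink1*. It did not for *Mfn2* (-0.09 on the log2 scale, against 0.10 in mKD 3) or *Bnip3l* (0.21, against 0.30 in mKD 2). Nor did it for *Bnip3*, where it was at -0.00 against 0.44 in mKD 2 and 0.50 in mKD 3. The mouse left in that fit, mKD 2, was the one with the most red blood cell transcripts. The part of endothelial, smooth muscle and red blood cells in the differences of these genes was not tested.

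Ratios of a pair of genes within a library do not depend on how libraries were scaled. The log2 ratio of *Mfn2* to *Mfn1* was 1.70, 1.71 and 1.67 in WT mice, against 1.91, 1.80 and 1.92 in mKD mice. All mKD mice had a higher ratio than all WT mice, with a difference of 0.18 on the log2 scale that stayed between 0.16 and 0.22 with each library left out and was 0.16 with the length trend removed. The exact permutation test gave p = 0.10, which is 0.40 after adjustment over the 4 ratios examined. Since 0.10 is the smallest p that 3 mice against 3 allow, no ratio could have passed a threshold of 0.05. The ratios of *Bnip3l* to *Bnip3*, *Mff* to *Fis1* and *Opa1* to *Dnm1l* overlapped between the genotypes, with differences of -0.15, -0.10 and 0.06 (exact permutation p = 0.60, 0.70 and 0.70). These 3 differences moved with the length correction: with the trend over the longest transcript removed they were 0.02, 0.25 and 0.24.

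**Figure D4:**
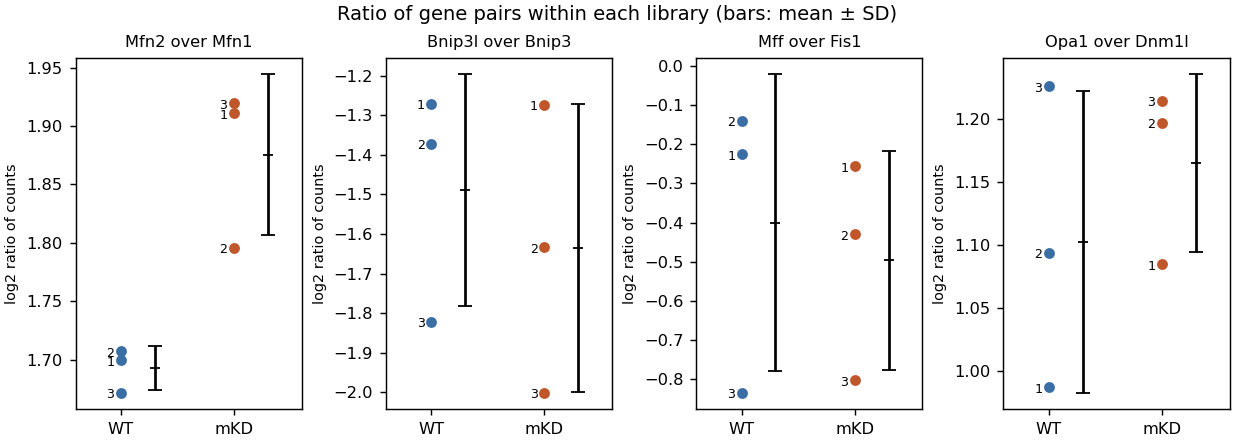
Log2 ratio of normalised counts of 4 gene pairs in each library (vertical axis, a separate scale in each panel that does not start at 0); points are single mice with their replicate number and bars the mean ± SD (n = 3). Only Mfn2 over Mfn1 is separated by genotype, at 1.67 to 1.71 in WT and 1.80 to 1.92 in mKD.

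Levels of different genes were compared as reads per kilobase of the longest transcript, scaled to the same total in each library. The scale serves to compare genes and not genotypes: on it the mean of *Mfn2* was lower in mKD, but in normalised counts it was 1.5% higher. *Pink1* stood first on this scale, with a level of 1342 ± 142 (SD, n = 3) in WT and 1642 ± 78.1 in mKD, and *Mfn2* followed with 387 ± 4.01 and 363 ± 23.5. *Bnip3* (230 in WT and 265 in mKD), *Fis1* (179 and 192) and *Mfn1* (114 and 94.2) lay in the middle. *Bnip3l* (43.8 and 45.5), *Opa1* (45.2 and 33.3), *Mff* (33.8 and 33.5) and *Dnm1l* (33.1 and 23.3) were the lowest. Over the 6 libraries the ranges of *Bnip3* and *Fis1* overlapped, as did those of neighbours among the 4 lowest, so their order is not set beyond the spread between mice. The choice of length matters: with the median transcript of each gene, 7 of the 9 changed rank, *Mfn1* rose from the fifth place to the third, and *Pink1* stayed first and *Dnm1l* last.

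The rest of the pathway was read from 6 lists, of which 93 genes were tested. Of these, 11 (11.8%) were higher and 2 (2.15%) lower past the cut-off, beside 8.31% and 9.51% of all genes, and 80 did not pass. The median log2 fold change was 0.04, beside 0.01 over all genes. At an unadjusted p under 0.05 there were 14, beside 18.1% of all genes. With the trend over the longest transcript removed, 4 were higher and 0 lower, beside 5.04% and 5.46% of all genes. Another 2 lists, of 25 genes linked to FOXO factors or to hypoxia-inducible factors, had 1 higher (4%) and 3 lower (12%), beside 8.31% and 9.51% of all genes. The same 2 shares of all genes stand beside the counts of each list below. Over all 8 lists 118 genes were tested, and at an adjusted p under 0.05 there were 0 in limma, 0 in edgeR and 2 in DESeq2 (*Atg101*, higher, and *Fbxo30*, lower), beside 0.0162%, 0.0162% and 4.34% of all genes, with 18 at an unadjusted p under 0.05 in limma.

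In the list around the inner membrane and OPA1 processing, 1 of 19 was higher and 0 were lower, with a median of 0.16. *Stoml2*, a partner of prohibitins in the inner membrane, was the one that passed, at 860, 1233 and 1019 in WT and 1420, 1288 and 1285 in mKD (log2 fold change 0.37, limma adjusted p = 0.25), and all mKD mice were above all WT mice. *Yme1l1*, a protease that cleaves OPA1, had -0.22, the MICOS subunit *Chchd6* 0.61 and the prohibitin *Phb2* 0.28, and none of these passed. With the trend over the longest transcript removed, *Stoml2* was at 0.20 and 0 of the 19 passed. With that over the median transcript removed, 0 of the 19 were higher and 1 was lower, beside 6.67% and 8.06% of all genes. In the list of fission adaptors and regulators 1 of 12 was higher and 0 were lower, with a median of 0.03. *Pgam5*, a mitochondrial phosphatase that acts on DRP1, was higher (log2 fold change 0.31, limma adjusted p = 0.27; 0.16 and not past the cut-off with the length trend removed). The DRP1 receptors *Mief1* and *Mief2* had -0.20 and 0.20 and did not pass, nor did *Mtfr1l* at 0.17.

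In the PINK1-Parkin list 4 of 15 were higher and 1 was lower, beside 8.31% and 9.51% of all genes, with a median of -0.00. Removal of the trend over the longest transcript left 2 higher and 0 lower, beside 5.04% and 5.46%. *Park2*, which encodes Parkin, had normalised counts of 154, 142 and 140 in WT and 180, 180 and 235 in mKD, and *Fbxo7*, a subunit of a ubiquitin ligase that binds Parkin, had 193, 226 and 236 in WT and 281, 282 and 297 in mKD. Neither overlapped between genotypes, and the log2 fold changes were 0.43 and 0.39 (limma adjusted p = 0.25 and 0.22). Their transcripts are long (4759 and 5388 nucleotides), and with the length trend removed they were 0.54 and 0.55 and still past the cut-off. *Tomm7*, which stabilises PINK1 at the outer membrane, was higher at 0.35 and *Park7*, which encodes DJ-1, at 0.52. Both have short transcripts (1125 and 937 nucleotides) and were at 0.07 and 0.22, not past the cut-off, with the trend removed. *Usp8*, a deubiquitinase of Parkin, was lower at -0.28 and did not pass with the trend removed, at -0.23.

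Among receptors of mitophagy other than BNIP3 and BNIP3L, 1 of 9 was higher and 0 were lower, with a median of 0.20. It was *Fkbp8*, an LC3-binding outer-membrane protein (log2 fold change 0.37, limma adjusted p = 0.19; 0.19 and not past the cut-off with the length trend removed). *Bcl2l13*, *Rheb* and *Fundc2* had -0.23, 0.27 and 0.20 and did not pass. With the trend over the longest transcript removed *Rheb* passed at 0.32. Removal of the trend over the median transcript left 3 of the 9 higher and 0 lower, beside 6.67% and 8.06% of all genes. In the autophagy core 3 of 27 were higher and 1 was lower, with a median of 0.04. *Atg101*, of the ULK1 complex, rose by 0.67 on the log2 scale, and *Gabarap* and *Map1lc3a*, the ubiquitin-like proteins that BNIP3-type receptors bind, by 0.40 and 0.31. *Atg2b*, a lipid transfer protein of the growing autophagosome, fell by 0.43. The 3 that rose have short transcripts (1112 to 1351 nucleotides) and *Atg2b* a long one (7546). With the trend over the longest transcript removed 0 of the 27 passed. With that over the median transcript removed 3 of the 27 were higher and 0 lower, beside 6.67% and 8.06% of all genes.

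The list of mitochondrial content, genes used as a gauge of mitochondrial mass, had 1 of 12 higher and 0 lower, with a median of 0.03. *Cox4i1*, a subunit of cytochrome oxidase, was the one higher (log2 fold change 0.40, limma adjusted p = 0.22) and was at 0.06 with the length trend removed. *Tomm20*, a receptor of the outer-membrane import complex, had 1372, 1509 and 1452 in WT and 1657, 1905 and 1626 in mKD. Its log2 fold change of 0.26 was just under 1.2-fold (limma adjusted p = 0.27), the genotypes did not overlap, and with the length trend removed it was 0.38 and passed. *Tomm22* and *Vdac3* had 0.23 and 0.13 and did not pass.

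**Figure D5:**
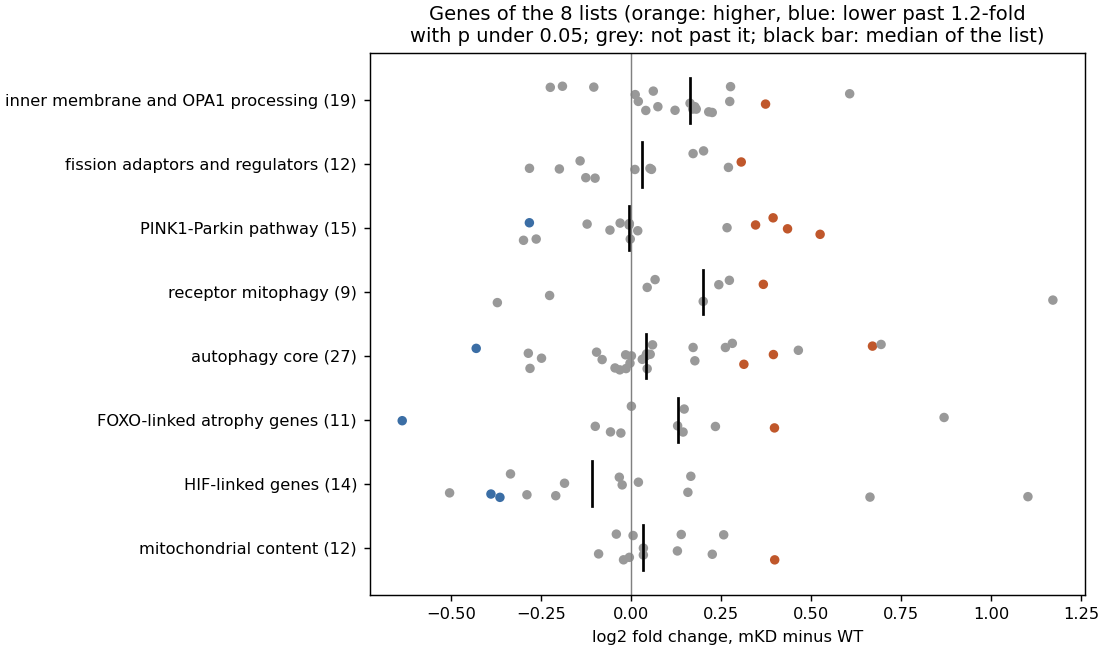
Log2 fold change, mKD minus WT (horizontal axis), of the genes of the 8 lists, 1 point per gene and 1 line per list with the number tested in brackets; orange points are higher and blue points lower past 1.2-fold with an unadjusted p under 0.05, grey points did not pass, and black bars are medians. The PINK1-Parkin list has the most orange points, 4 of 15 (beside 8.31% of all genes tested), with a median of -0.00, and 101 of the 118 genes are grey.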

How the data were processed

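Total RNA of each muscle was purified (RNeasy Fibrous Tissue kit), and strand-specific libraries were prepared from its poly(A) fraction. The authors processed the reads in Partek Flow version 9.0.20.0622 and name DESeq2, and the submitters' processing notes name GRCm38 (mm10). The sources used here do not name the aligner or counter. Deposited values are normalised signal: as the values show, the read counts of every library were divided by a constant. The table also holds the authors' own fold changes and p-values, which were not used.

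Whole reads were recovered by division, and 100% of values were whole within 1e-04. Genes passing edgeR's filter on these reads (12322 of 22027) were tested with limma 3.58.1 (R 4.3.3) with a trend on log2(value + 1), no covariate beside genotype, and p-values were adjusted by Benjamini-Hochberg over these genes. Fold changes are on this scale, mKD minus WT. Exact permutation tests were two-sided over the 6 libraries. Transcript lengths and coordinates come from GENCODE M21 (99.7% of genes). As an alternative, each library's trend over length was subtracted from it. The trend was a lowess curve (span 0.3) over log2 length. It was fitted to each gene's log2 value minus the mean of that gene over the 6 libraries. Where the text names no transcript for a length trend, the longest was used. Promoter windows come from RefSeq (GRCm38.p6). Near copies were annotated transcripts of at least 90% identity over at least 100 nucleotides.

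Alternatives were edgeR 4.0.16 and DESeq2 1.42.0 on the recovered reads, pseudocounts of 0.5 and 4, other filters and scalings, a fold of 1.5, an adjusted p of 0.1, a replicate block, and leaving out libraries. The study's results give a cut-off of 1.2-fold with p under 0.05, without saying whether p was adjusted, and its methods an FDR under 0.05, so unadjusted and adjusted p were both used. The fits were also run on simulated counts with known folds of 1.5 or more, scored at an adjusted p. That does not cover calls at 1.2-fold with an unadjusted p. The genes named are the 9, *Tet3*, in each list at most 4 genes, those of smallest limma p, *Usp8* as 1 more that passed the cut-off (chosen after its values were seen), and for each of the 9 the gene with the nearest pattern. The 9 genes and all lists were chosen with earlier results of these data known.

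Sequencing depth was 16219227 to 32148270 reads per library. The mice are biological replicates according to the study, and p-values rest on 3 per genotype.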

Additional observations from a re-analysis of the deposited data

How the results depend on the processing

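The 3 genes of 9 past the cut-off were 1 with the trend over the median transcript removed, 1 with the replicate block and the longest-transcript trend removed, and 0 at 1.5-fold, at an adjusted p under 0.1, without mKD libraries 1 and 3, and without these with the trend removed. The 1 higher was 0 with the replicate block, 0 with block and trend removed, 0 without mKD libraries 1 and 3 (with and without the trend), and 0 to 2 with each library left out. The 2 lower were 1 with the longest-transcript trend removed (1 also with the block), 0 with the median-transcript trend removed, 0 without mKD libraries 1 and 3 in both fits, and 1 to 2 with each library left out. The 12 genes higher over the 8 lists were 7 with the longest-transcript trend removed (7 also with the block), 4 without mKD libraries 1 and 3 (2 with the trend removed), and 6 (without WT 1) to 13 with each library left out. The 5 lower were 2 with the trend removed, 2 with the block and 1 with both. They were 3 (without mKD 1 or mKD 3) to 7 (without WT 1 or WT 3) with each library left out. With the median-transcript trend removed, the genes of the 8 lists stayed near the main counts, with 11 higher and 6 lower, beside 6.67% and 8.06% of all genes. The combined fits were chosen after seeing the data. The median transcript as length changed the rank of 7 genes. The cause of these changes was not tested.

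Signs turned for *Fis1* with the longest-transcript trend removed (-0.10, with the replicate block -0.10, without mKD libraries 1 and 3 -0.12), for *Mff* without WT 3 (-0.13) or mKD 1 (-0.05, over a range up to 0.33), for *Mfn2* without mKD 3 (-0.021, over a range up to 0.072) and for *Mfn1* with the trend removed and without mKD libraries 1 and 3 (0.036). The signs of *Opa1*, *Dnm1l*, *Pink1*, *Bnip3* and *Bnip3l* were kept in all 20 alternative fits. Pseudocount, filter and scaling moved no call among the 9.

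The labels share replicate numbers, and whether these pair the mice is not stated in the sources used here. The deviations of same-numbered mice from the mean of their genotype correlated at 0.06, -0.05 and -0.08. So few mice per genotype cannot decide whether they were paired. With the number as a block, *Pink1* had an unadjusted limma p of 0.051, *Opa1* 0.045 and *Dnm1l* 0.027.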

Other observations

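A list of 11 genes tied to FOXO factors and muscle atrophy had 1 higher and 1 lower, beside 8.31% and 9.51% of all genes. Its median log2 fold change was 0.13. With the trend over the longest transcript removed, 3 of the 11 were higher and 1 was lower, beside 5.04% and 5.46% of all genes. With that over the median transcript removed, 2 were higher and 1 was lower, beside 6.67% and 8.06%. *Ctsl*, a lysosomal protease, had normalised counts of 2203, 2355 and 2411 in WT and 2715, 3125 and 3376 in mKD (log2 fold change 0.40, limma adjusted p = 0.17), and with the length trend removed it was 0.61. *Fbxo30*, a ubiquitin ligase subunit of muscle wasting, had 409, 323 and 410 in WT and 230, 233 and 268 in mKD (log2 fold change -0.63, limma adjusted p = 0.14; -0.50 with the length trend removed). Neither gene overlapped between genotypes. Both were past the cut-off in the main fit and with the trend over the longest transcript removed. *Foxo1* did not pass and had 1836 and 1664 in mKD 1 and mKD 3, the libraries with the most nerve transcripts, against 687 in mKD 2 and 512 to 937 in WT. *Psmd11*, a proteasome subunit, had 0.23 and did not pass.

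A list of 14 genes linked to hypoxia-inducible factors had 0 higher and 2 lower, beside 8.31% and 9.51% of all genes. The median was -0.11. Removal of the trend over the longest transcript left 0 higher and 1 lower, beside 5.04% and 5.46%. Removal of that over the median transcript left 0 higher and 3 lower, beside 6.67% and 8.06%. *Hif1a*, the hypoxia-inducible subunit itself, had 507, 517 and 558 in WT and 403, 453 and 375 in mKD (log2 fold change -0.36, limma adjusted p = 0.21). *Pdk1*, a kinase that holds back pyruvate dehydrogenase, had 3093, 2775 and 2873 in WT and 2085, 2157 and 2443 in mKD (log2 fold change -0.39, limma adjusted p = 0.16). All mKD mice were below all WT mice in both genes, and with the length trend removed the log2 fold changes were -0.26 and -0.25, not past the cut-off. *Epas1* had -0.33 and did not pass. *Ndrg1* also did not pass and had 3246 in mKD 1 and 1542 in mKD 3 against 634 in mKD 2 and 645 to 706 in WT.

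Of 9159 genes with a mean normalised count of at least 100, the gene whose log2 values relative to the WT mean were nearest to those of each of the 9 over the 6 libraries was named. For *Mfn1* it was *Scarb2*, with a root mean square difference of 0.019. For *Pink1* it was *Txndc15* (0.028), with 556, 727 and 671 in WT and 895, 857 and 838 in mKD. For *Dnm1l* it was *Ash1l* (0.038), for *Opa1* *Pnrc2* (0.033), for *Mfn2* *Ptk2* (0.034), for *Fis1* *Tspan15* (0.027), for *Bnip3l* *Pdss2* (0.037) and for *Bnip3* *Gpn2* (0.067). *Mff* had the least close neighbour, *Hspb3* at 0.14. Likeness over 6 libraries is a description of these mice.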
